A study of Mus musculus with 4 samples.

Results

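Integrins and the proteins of the focal adhesion were examined in MLO-Y4, a line of osteocyte-like cells from mouse long bone, after 12 h of cyclic stretch. Of 44 listed names, 43 had a row among the 55450 genes of the count data, because *Kindlin2* is an older name of *Fermt2*, which has its own row. The list was taken by name, but it was chosen with earlier results of these data known. It holds 18 integrin subunits, 19 proteins of the adhesion plaque, 2 caveolins, and 4 genes for matrix ligands or for cell surface counter-receptors of integrins. After the filter on low counts 39 of the 43 genes were tested, and *Itga8*, *Itga9*, *Itgb8* and *Vtn* were not.

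The samples were 2 unloaded and 2 loaded libraries of wild-type MLO-Y4 cells, all maintained in DMEM with fetal and newborn calf serum. Loaded cells were grown on a silicone membrane coated with type I collagen and stretched equiaxially at 0.5 Hz and 20% strain, starting at 60% confluency. Unloaded cells were held for the same 12 h in the incubator of the stretching device, but the sample records place them on ordinary culture plates and name no coating. Stretch, the elastic membrane and the recorded collagen coat therefore came together in the loaded group, and their effects on adhesion genes cannot be told apart. Both groups are 1 cell line, the records give replicate numbers but do not say whether replicates were separate cultures, and the p-values measure only the spread between these libraries, which may be technical.

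Integrins are receptors made of 1 alpha and 1 beta chain that bind the extracellular matrix outside the cell and, through talin and kindlin, the actin cytoskeleton inside it. The alpha chain largely sets the ligand: collagens, laminins, or proteins that carry the Arg-Gly-Asp (RGD) tripeptide such as fibronectin and osteopontin. Osteocytes sit in a mineralized matrix, and integrin attachments along their processes are known as sites where matrix strain and fluid flow reach the cytoskeleton. Force on an integrin opens talin, recruits vinculin and activates the focal adhesion kinase and Src, mostly by changes in protein shape and phosphorylation that transcript counts do not measure.

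The RGD motif is shown in the coding sequence of 2 of its carriers in these cells, *Fn1* (fibronectin) and *Spp1* (osteopontin), because it is the site read by the alpha5 and alphav integrins described below. The *Fn1* stretch lies at chr1:71606722-71606778 (GRCm38, minus strand, exon 30 of 46, coding), and its motif, the first of 2 in this transcript, starts at residue 1614 of 2477. The second *Fn1* motif, at residue 2181 (exon 40), is not printed. The *Spp1* stretch lies at chr5:104439457-104439513 (plus strand, exon 7 of 8, coding), with the motif at residue 145. The 57 bases of each are printed 5′ to 3′, with the 3 codons of the tripeptide in capitals.
Fn1: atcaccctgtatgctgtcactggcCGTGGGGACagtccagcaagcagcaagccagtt
Spp1: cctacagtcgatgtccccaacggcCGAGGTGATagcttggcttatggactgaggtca
At least 1 RGD site was found in 7 of 9 coding transcripts of *Fn1* and in 6 of 7 of *Spp1*.

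The libraries held 28941994 to 32185693 counts, and 16269 genes passed the filter. Levels are given as CPM (counts relative to library size, with edgeR's TMM factors of 0.983 to 1.01), and levels of different genes are compared in TPM, which also corrects for exon length. A floor of 3 counts equals 0.093 to 0.103 CPM and covers counting error only. The osteocyte label was checked by markers: *Pdpn*, *Cd44*, *Gja1* and *Phex* were expressed, *Dmp1* was low and *Mepe* was at 0. *Sost* had 4 counts in 1 library, and *Fgf23* had 4 and 9 counts in unloaded and 0 in loaded libraries. *Pdpn* was itself higher in loaded cells (log2 fold change 0.59, edgeR adjusted p = 0.0334, DESeq2 adjusted p = 2.2e-08). Of the osteoblast markers, *Col1a1* was at 931 to 1032 CPM and *Runx2* at 48.5 to 56.4 CPM. *Bglap*, *Alpl* and *Sp7* were low, and *Ibsp* was at 0.

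Among the 39 genes tested, edgeR's quasi-likelihood test with Benjamini-Hochberg adjustment over all genes called 1 lower and 0 higher in loaded cells at an adjusted p under 0.01. Over all 16269 genes this rule called 0.0861% lower and 0.0123% higher. The gene was *Vcam1*, and *Itgb2* joined it at an adjusted p under 0.05, a limit that 0.565% of all genes passed as lower and 0.338% as higher. Without adjustment 7 of the 39 were lower and 1 was higher at p under 0.05, against 7.46% of all genes lower and 6.88% higher (14.3% in all). DESeq2, the test used in the study, gave an adjusted p to 35 of them and called *Vcam1* and *Itgb2* lower and *Itgb7* higher at 0.01. Of the 12484 genes to which DESeq2 gave an adjusted p, it called 1.55% lower and 1.36% higher.

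The loaded libraries lay both below the unloaded ones for 10 of the 39 genes and both above for 6, against 24.5% and 22.1% of all genes. The median log2 fold change (loaded minus unloaded) of the 39 was 0.01, and over all tested genes it was -0.01. The 8 genes with an unadjusted edgeR p under 0.05 were 6 integrin subunits, of which 5 were lower and 1 was higher, and the counter-receptors *Vcam1* and *Icam1*, both lower. None of the plaque proteins or caveolins was among them. This is a description of which genes passed a limit that 14.3% of all genes passed, and the groups were not compared by a test.

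**Figure D1:**
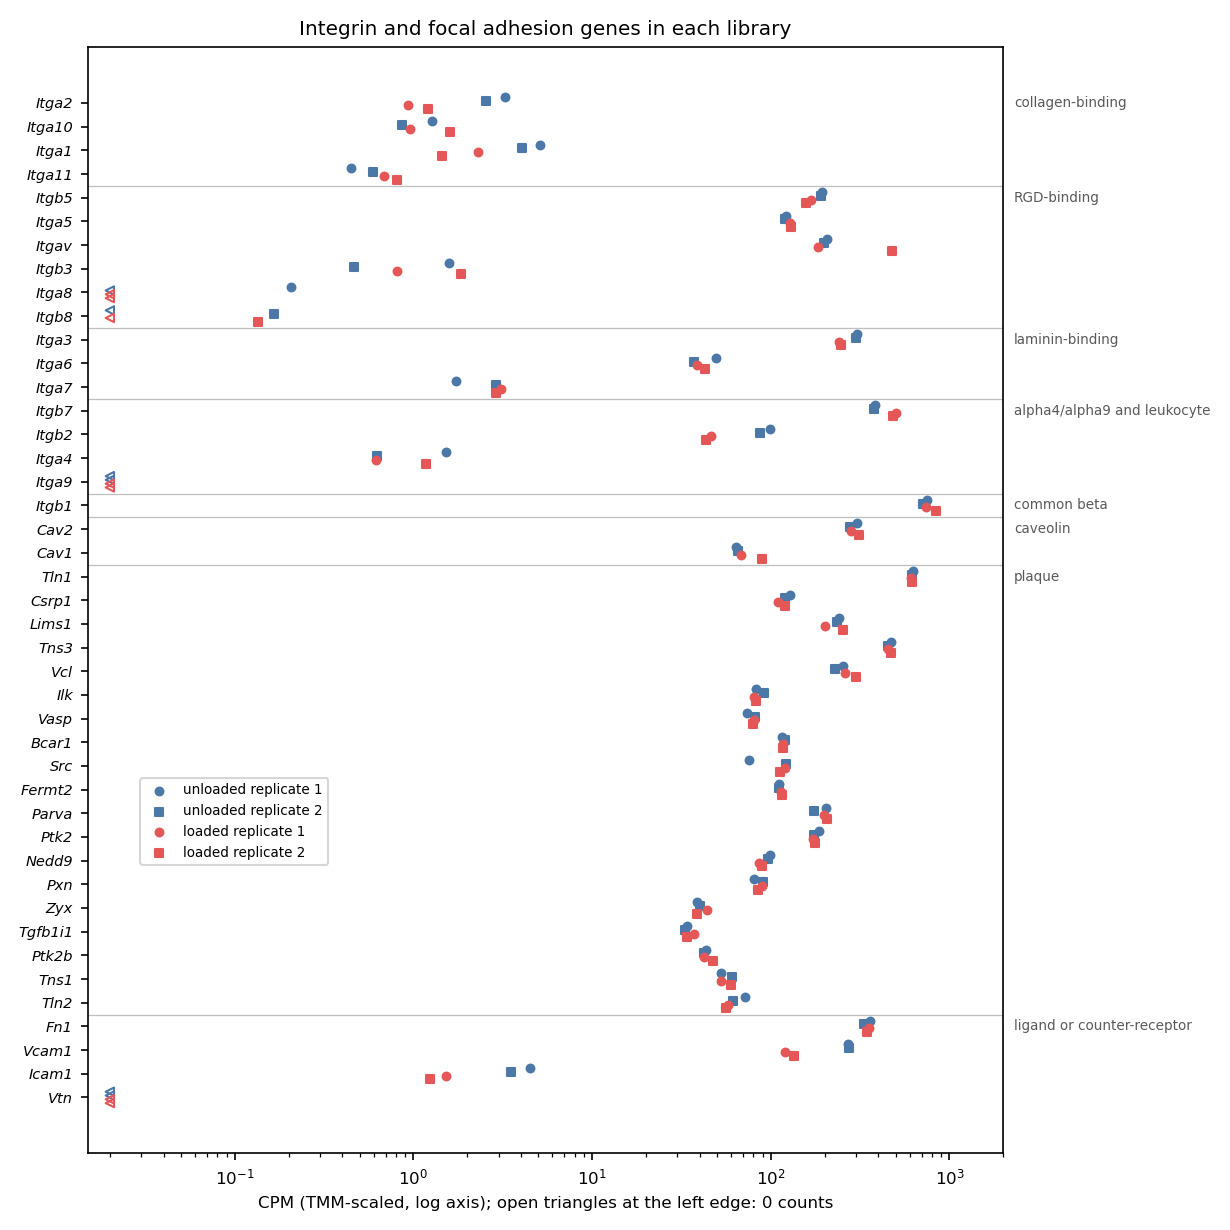
TMM-scaled CPM of the 43 genes in each of the 4 libraries on a log axis, ordered by functional group and, within a group, by TPM. Circles and squares are replicates 1 and 2, blue is unloaded, red is loaded, and open triangles mark 0 counts. The loaded points of Vcam1, Icam1, Itgb2, Itga1 and Itga2 lie left of the unloaded ones, and loaded replicate 2 stands apart for Itgav.

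*Vcam1* encodes vascular cell adhesion molecule 1, a surface protein of the immunoglobulin family that is bound by the alpha4 and alpha9 integrins of leukocytes. It was at 269 and 274 CPM in unloaded and at 120 and 135 CPM in loaded cells. Both loaded libraries were below both unloaded ones, by far more than the gap between replicates. The level fell by 1.09 on the log2 scale (SE 0.08, edgeR adjusted p = 0.00813), which is 2.13-fold lower. The call was lost without loaded replicate 1 (edgeR adjusted p = 0.0267) and without loaded replicate 2 (edgeR adjusted p = 0.0358), with log2 fold changes of -1.01 and -1.18. DESeq2 gave an adjusted p of 1.16e-26.

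In bulk RNA, fewer cells that express a gene and less RNA per cell cannot be told apart, here and for every value that follows. *Vcam1* lies at chr3:116109949-116129688 (GRCm38, minus strand), and 0.688% of its exon bases are shared with an antisense gene that had at most 8 counts in a library. Its integrin receptors were nearly silent in these cells. *Itga4* had 44 and 19 counts in unloaded and 20 and 35 in loaded libraries, and *Itga9* had 0 counts in all 4. *Vcam1* is also a gene of activated endothelium. The summed level of 5 endothelial markers was far below *Vcam1* itself, at 3.37 and 2.18 CPM in unloaded and 2.91 and 1.71 CPM in loaded libraries. Of the 3 markers tested, 2 had a fold change below 0 and 1 above. The latter, *Kdr*, had 0 counts in unloaded and 17 and 14 in loaded libraries.

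*Icam1*, the related molecule bound by the beta2 integrins, was far less abundant, with a mean of 2.1 TPM against 76.4 TPM for *Vcam1*. It had 131 and 106 counts in unloaded libraries and 49 and 37 in loaded ones, and the groups did not overlap. Its log2 fold change was -1.53 (SE 0.30), the most negative value of the 39. The gene was not called (edgeR adjusted p = 0.108, DESeq2 adjusted p = 0.0610). The antisense gene *Gm47079* shares 11.7% of the *Icam1* exon bases. It had 3 and 15 counts in unloaded and 4 and 0 in loaded libraries.

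*Itgb2* encodes the beta2 chain, which pairs with the alphaL, alphaM, alphaX and alphaD chains on leukocytes. It was at 99.3 and 86.5 CPM in unloaded and 46.4 and 43.2 CPM in loaded cells. The groups were separated by more than the replicate spread. The log2 fold change was -1.05 (SE 0.11, edgeR adjusted p = 0.0210), 2.07-fold lower, past 0.05 but not 0.01. DESeq2 called it at 0.01 (adjusted p = 2.67e-13), and edgeR did so without unloaded replicate 2 (adjusted p = 0.00676). Without loaded replicate 1 or 2 the edgeR adjusted p was 0.0615 and 0.0800, past neither limit.

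*Itgb7* encodes the beta7 chain, the partner of alpha4 and alphaE in lymphocyte homing to the gut. It went the other way, with 383 and 378 CPM in unloaded and 501 and 486 CPM in loaded cells. Both loaded libraries were above both unloaded ones, and the replicates were close. The log2 fold change was 0.37 (SE 0.06), 1.29-fold. edgeR gave an adjusted p of 0.0510, and DESeq2 called the gene higher (adjusted p = 7.48e-05).

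The alpha chains known to pair with beta2 and beta7 were rare or at the floor. *Itgal* had 48, 36, 48 and 21 counts in unloaded replicates 1 and 2 and loaded replicates 1 and 2. *Itgae* had 22, 28, 13 and 18 counts in the same order. *Itgam*, *Itgax* and *Itgad* had between 0 and 4 counts. The transcripts of both beta chains were thus present at 49.4 to 599 TPM in group means without an alpha partner of comparable level.

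Of 7 leukocyte markers, *Cd52* and *Tyrobp* were at 0, *Ptprc* and *Adgre1* had counts in 1 library only (3 and 4), and *Csf1r* was abundant, at 1558 to 1584 CPM in all 4 libraries. *Csf1r* hardly differed between the groups (log2 fold change -0.02, SE 0.05). The sum of the other 6 markers, without *Csf1r*, was 7.23 and 5.78 CPM in unloaded and 4.4 and 3.9 CPM in loaded libraries. This sum was lower in the loaded group, as *Itgb2* and *Vcam1* were, but it was far below the level of either gene in every library. No marker was called by edgeR at 0.01. Most of that sum was *Cd68*, a lysosomal protein of macrophages, at 5.58 and 4.65 CPM in unloaded and 3.07 and 2.82 CPM in loaded libraries (log2 fold change -0.80, edgeR adjusted p = 0.216). The part of such cells in the *Itgb2* and *Vcam1* values was not tested.

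**Figure D2:**
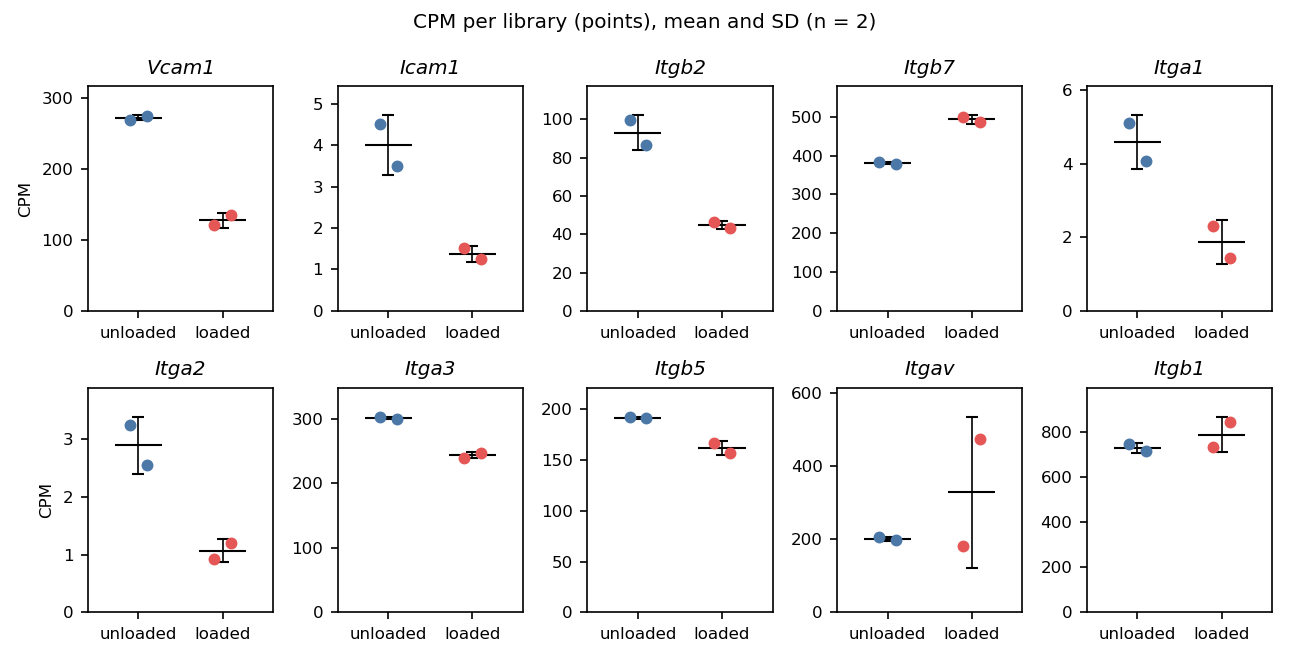
CPM of 10 genes in each library, on axes that start at 0, with unloaded libraries in blue and loaded ones in red. Horizontal lines are group means and bars are the SD over 2 libraries. Vcam1, Itgb2, Icam1, Itga1, Itga2, Itga3 and Itgb5 are lower in both loaded libraries, Itgb7 is higher in both, and Itgav is high in loaded replicate 2 alone.

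Of the 4 collagen-binding alpha chains none was called. Their log2 fold changes ran from -1.43 to 0.51, 2 below 0 and 2 above, so the median of -0.51 does not describe any of them. All 4 were rare, at 0.42 to 0.94 TPM. *Itga2*, the alpha2 chain of a receptor for fibrillar collagen I, had 94 and 77 counts in unloaded and 30 and 36 in loaded libraries. *Itga1*, the alpha1 chain, which prefers collagen IV, had 148 and 123 counts in unloaded and 74 and 43 in loaded libraries. For both genes every loaded library was below every unloaded one. *Gm49395*, a gene on the same strand, shares 3.68% of the *Itga1* exon bases, so reads of these bases cannot be told apart. It had 2 and 8 counts in unloaded and 5 and 18 in loaded libraries.

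The log2 fold change was -1.43 (SE 0.35, edgeR adjusted p = 0.151) for *Itga2*. For *Itga1* it was -1.29 (SE 0.33, edgeR adjusted p = 0.162). DESeq2 gave adjusted p-values of 0.191 and 0.121. These genes lie next to each other on chromosome 13, *Itga2* at 114833081 to 114932100 and *Itga1* at 114953096 to 115101964, both on the minus strand (GRCm38). A collagen I coat is recorded for the loaded cells only, and it cannot be told apart from stretch.

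The other pair had the opposite sign and larger errors. *Itga10*, a chain best known from cartilage, had 37 and 26 counts in unloaded and 31 and 48 in loaded libraries (log2 fold change 0.27, SE 0.48), and the groups overlapped. *Itga11*, a collagen receptor of fibroblasts, had 13 and 18 counts in unloaded and 22 and 24 in loaded libraries (0.51, SE 0.55). At this depth neither difference was detectable. The annotation places 33.5% of the *Itga10* exon bases also in *Gm42957*, which had 0 counts.

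RGD-binding chains were led by *Itgb5*, the beta5 chain that pairs with alphav as a vitronectin receptor, at 169 TPM. It was at 192 and 191 CPM in unloaded and 167 and 157 CPM in loaded cells, without overlap. The log2 fold change was -0.25 (SE 0.07), with an edgeR adjusted p of 0.187 and a DESeq2 adjusted p of 0.135. *Itga5*, the alpha chain of the classical fibronectin receptor, was at 121 CPM in both unloaded libraries and at 128 and 129 CPM in the loaded ones. The loaded values were higher in 2 of 2 libraries, with a log2 fold change of 0.09 (SE 0.07, edgeR adjusted p = 0.604).

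*Itgav*, the alphav chain shared by the vitronectin receptors, was at 206, 197 and 183 CPM in unloaded replicates 1 and 2 and loaded replicate 1, and at 475 CPM in loaded replicate 2. The loaded replicates were 2.60-fold apart, so the log2 fold change of 0.71 (SE 0.39, edgeR adjusted p = 0.482) rested on 1 library. Without loaded replicate 2 it was -0.14, and without loaded replicate 1 it was 1.24. *Itgb3*, the beta3 chain, had 46 and 14 counts in unloaded and 26 and 55 in loaded libraries. *Itga8* had 6 counts in 1 unloaded library and 0 elsewhere, and *Itgb8* had 0, 5, 0 and 4 counts.

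Among the laminin-binding chains, *Itga3* (alpha3, a receptor for laminins of basement membranes) was at 302 and 300 CPM in unloaded and 240 and 246 CPM in loaded cells. The groups did not overlap, and the replicates were close. Its log2 fold change was -0.31 (SE 0.06), 1.24-fold lower. It missed the threshold with edgeR (adjusted p = 0.0985) and narrowly with DESeq2 (adjusted p = 0.0103). *Itga6* was at 37.2 to 49.1 CPM with overlapping groups (-0.08, SE 0.15), and *Itga7*, a chain of muscle laminin receptors, was at 1.72 to 3.10 CPM (0.37, SE 0.34). *Itgb4*, a beta partner of alpha6 outside the list, had a log2 fold change of -0.28 (SE 0.08, edgeR adjusted p = 0.190).

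*Itgb1*, the beta1 chain that pairs with most of the alpha chains above, was the most abundant integrin transcript. It was at 747 and 715 CPM in unloaded and 734 and 845 CPM in loaded cells, and the groups overlapped. The log2 fold change was 0.11 (SE 0.08, edgeR adjusted p = 0.581).

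In order of level, *Itgb1* (631 TPM, mean of 4 libraries) and *Itgb7* (534 TPM) stood above *Itgb5* (169 TPM) and *Itga3* (161 TPM), and *Itga5* (85.7 TPM), *Itgav* (83.3 TPM), *Itgb2* (76.7 TPM) and *Itga6* (15.8 TPM) followed. These 8 of 18 subunits were at 10 TPM or more, *Itga7* was at 1.11 TPM, and 9 were under 1 TPM. *Itgb5* and *Itga3* did not differ beyond their spread in unloaded cells (184 ± 4.25 and 180 ± 4.46 TPM, SD, n = 2). The next 3 changed places between groups: *Itgb2* was at 104 ± 12.1 TPM in unloaded and 49.4 ± 3.03 in loaded cells, *Itga5* at 83.7 ± 1.74 and 87.8 ± 0.518, and *Itgav* at 64.1 ± 3.14 and 102 ± 63.4. The place of *Itgav* in loaded cells rested on loaded replicate 2 (147 TPM), since in loaded replicate 1 it was at 57.7 TPM, below *Itga5* at 88.2 TPM. These levels use the length of all exon bases of a gene, and the order depended on that choice. By the longest transcript, *Itgav* (99.0 TPM, mean of 4 libraries) was above *Itga5* (74.7 TPM), and *Itga3* (148 TPM) was above *Itgb5* (142 TPM).

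As shares of the summed TPM of 18 alpha chains (12 of the list and 6 others of the genome), laminin-binding chains made up 56.3% and 56.2% in unloaded and 51.4% and 40.2% in loaded libraries. RGD-binding chains made up 42.2% and 42.5% in unloaded and 47.6% and 58.9% in loaded libraries. The shift was largest in loaded replicate 2, the library with the high *Itgav* value. Collagen-binding chains held 1.02% and 0.845% in unloaded and 0.630% and 0.595% in loaded libraries.

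Among the beta chains, *Itgb1* held 41.3% to 45.5% and the leukocyte chains *Itgb2* and *Itgb7* together 40.2% to 45.0%. The RGD-binding beta chains held 12.9% and 13.2% in unloaded and 10.8% and 9.86% in loaded libraries, so the loaded values were lower in both. Shares sum to 100% within a chain, so that a rise in one group lowers the others. These shares are a description without a test.

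**Figure D3:**
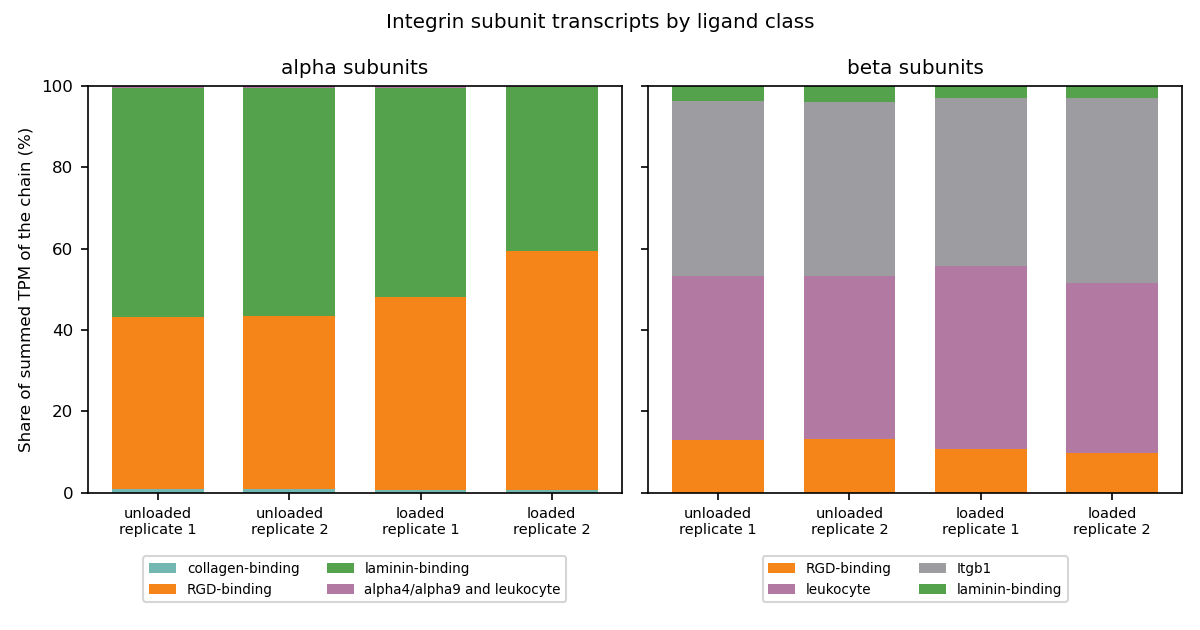
Percent of the summed TPM of integrin alpha chains (left) and beta chains (right) by ligand group, one stacked bar for each library. RGD-binding alpha chains take 42.2% and 42.5% in unloaded and 47.6% and 58.9% in loaded libraries, and the collagen-binding and the alpha4/alpha9 and leukocyte alpha shares, about 1% or less, are barely visible.

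The adhesion plaque was the largest group and the one with the smallest differences. All 19 plaque genes were tested, 0 were called by edgeR or by DESeq2, and 0 had an unadjusted edgeR p under 0.05. Their log2 fold changes ran from -0.23 (*Tln2*) to 0.25 (*Src*), with a median size of 0.06 against 0.18 over all tested genes. All 19 were at 11.4 TPM or more with at least 989 counts in every library. The median of 0.18 over all tested genes includes genes of low counts, whose fold changes vary more, and whether the level of the plaque genes sets their small values was not tested. The loaded libraries were both above the unloaded ones for 2 genes, both below for 3, and overlapped for 14. Over all tested genes they were both above for 22.1% and both below for 24.5%.

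*Tln1*, the main talin, which links the beta chain tail to actin, was the most abundant plaque gene, at 628 and 616 CPM in unloaded and 605 and 619 CPM in loaded cells. The groups overlapped, and the log2 fold change was -0.02 (SE 0.05, edgeR adjusted p = 0.892). *Tln2*, the second talin, was at 71.9 and 61.4 CPM in unloaded and 57.5 and 56.1 CPM in loaded cells (-0.23, SE 0.11, edgeR adjusted p = 0.408). *Fermt2*, the kindlin that activates integrins together with talin, was at 111 to 116 CPM in all 4 libraries (0.05, SE 0.07).

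*Vcl*, vinculin, binds the stretched talin rod and strengthens its hold on actin. It was at 254 and 230 CPM in unloaded and 259 and 299 CPM in loaded cells. Both loaded values were higher, but the distance between replicates was as large as that between groups (0.21, SE 0.09, edgeR adjusted p = 0.384). The gene *Ap3m1* on the opposite strand shares 25.5% of the *Vcl* exon bases, and with the strandedness of the libraries not given in the sources used here, reads from both cannot be told apart.

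Of the kinases, *Ptk2* (focal adhesion kinase) was at 173 to 187 CPM and its relative *Ptk2b* at 42.3 to 47.6 CPM, with log2 fold changes of -0.05 (SE 0.07) and 0.07 (SE 0.10). *Src*, the kinase that joins the activated focal adhesion kinase, was at 75.1 CPM in unloaded replicate 1 and at 122, 120 and 113 CPM in the other three libraries. Its log2 fold change of 0.25 (SE 0.21) rested on that low library, and was -0.05 without it. *Bcar1* (p130Cas), a docking protein whose substrate domain is exposed by stretching, was at 116 to 120 CPM (-0.01, SE 0.07), and its relative *Nedd9* was at 99.2 and 96.1 CPM in unloaded and 85.8 and 89.1 CPM in loaded cells (-0.16, SE 0.08).

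The complex of integrin-linked kinase, PINCH and parvin anchors the beta chain to actin. *Ilk* was at 81.0 to 91.7 CPM, *Lims1* (PINCH) at 200 to 253 CPM and *Parva* (alpha-parvin) at 173 to 206 CPM. None of them was called, with log2 fold changes of -0.10, -0.06 and 0.10. Because *Taf10* on the opposite strand covers 76.7% of the exon bases of *Ilk*, the *Ilk* value is uncertain.

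The adaptors and actin-bound proteins showed the same narrow range. *Pxn* (paxillin, a scaffold for the kinases) was at 80.6 to 90.8 CPM, *Tgfb1i1* (Hic-5, a paxillin relative) at 33.1 to 37.2 CPM, and *Zyx* (zyxin, which moves to strained actin fibres) at 38.5 to 44.0 CPM. *Vasp*, which promotes actin filament growth, was at 73.1 to 81.6 CPM, and *Csrp1*, a LIM protein bound to zyxin and alpha-actinin, at 110 to 128 CPM. The tensins, which tie integrins to actin in mature adhesions, were at 452 to 473 CPM (*Tns3*) and 52.6 to 60.6 CPM (*Tns1*). The log2 fold changes of these 7 genes lay between -0.10 and 0.08.

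**Figure D4:**
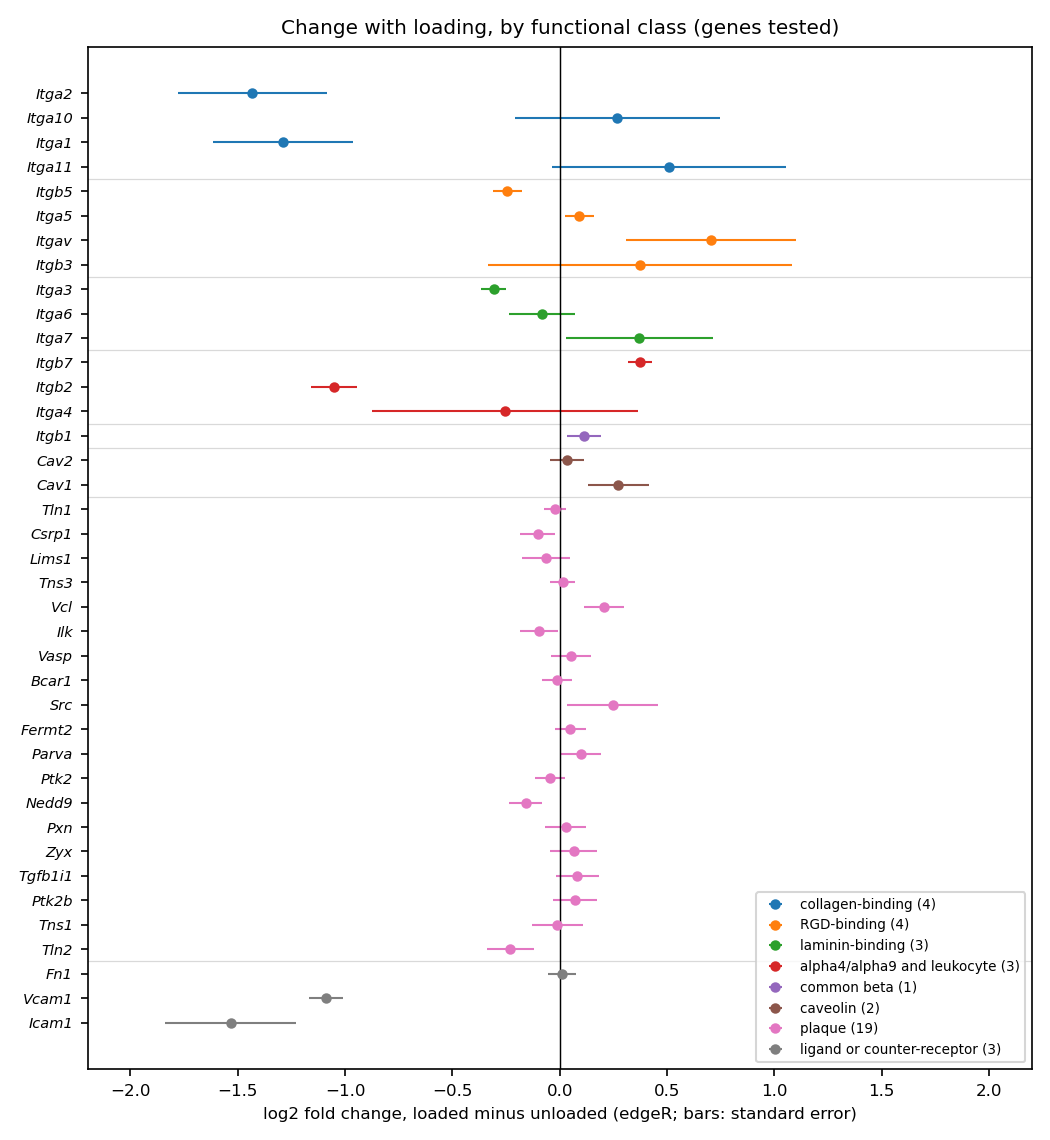
Log2 fold change (loaded minus unloaded, edgeR) of the 39 genes tested, coloured by functional group, with bars of 1 standard error. The plaque genes lie between -0.23 and 0.25, while Icam1, Itga2, Itga1, Vcam1 and Itgb2 lie below -1.

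Caveolins shape membrane pits that flatten under tension and that share signalling partners with integrins. *Cav2* was at 277 to 312 CPM with overlapping groups (0.03, SE 0.08, edgeR adjusted p = 0.896). *Cav1*, the main coat protein of caveolae, was at 64.2 and 65.9 CPM in unloaded and 67.8 and 89.3 CPM in loaded cells. Both loaded values were higher, the second by more than the first (0.27, SE 0.14, edgeR adjusted p = 0.448).

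The matrix ligand *Fn1*, whose RGD site is printed above, was abundant at 101 TPM. It was at 360 and 333 CPM in unloaded and 354 and 345 CPM in loaded cells, and the groups overlapped (log2 fold change 0.01, SE 0.07, edgeR adjusted p = 0.959). *Vtn*, vitronectin, had 0 counts in all 4 libraries, which allows up to 0.103 CPM.

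A wider list of 119 adhesion genes outside these 43, made of other integrins, plaque proteins, adaptors, caveolar genes, ligands and co-receptors, was read the same way. Of 106 tested, edgeR called 0 at an adjusted p under 0.01, and 14 were higher and 13 lower at an unadjusted p under 0.05, the limit passed by 6.88% and 7.46% of all genes. DESeq2, with an adjusted p for 96 of them, called 2 higher and 3 lower, against 1.36% and 1.55% of the 12484 genes with such a value. The median log2 fold change was -0.03.

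Among the ligands of that list, *Spp1*, the osteopontin whose RGD site is shown above, was at 407 ± 2.24 CPM in unloaded and 287 ± 20.3 CPM in loaded cells (SD, n = 2). Its log2 fold change was -0.50 (SE 0.07, edgeR adjusted p = 0.0405, DESeq2 adjusted p = 9.43e-07), lower in 2 of 2 loaded libraries. *Ccn1*, a matrix protein bound by alphav and alpha6 integrins, was at 204 ± 10.1 CPM in unloaded and 254 ± 8.33 CPM in loaded cells (0.32, SE 0.07, edgeR adjusted p = 0.129, DESeq2 adjusted p = 0.009999, just under the threshold). *Ccn1* binds integrins without an RGD motif.

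The other genes called by DESeq2 alone were a co-receptor, a guanine nucleotide exchange factor and a talin-binding protein. *Cd47*, the integrin-associated protein, was at 305 ± 2.21 CPM in unloaded and 242 ± 2.69 CPM in loaded cells (-0.33, SE 0.06, edgeR adjusted p = 0.0792, DESeq2 adjusted p = 0.00353). *Trio*, the exchange factor, was at 213 ± 34.7 and 288 ± 3.46 CPM (0.44, SE 0.11, edgeR adjusted p = 0.165, DESeq2 adjusted p = 0.00255). *Kank3*, of the family that links talin to cortical microtubule sites, was at 36.9 ± 6.49 and 22.9 ± 1.27 CPM (-0.69, SE 0.14, edgeR adjusted p = 0.122, DESeq2 adjusted p = 0.00725).

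Because *Icam1* had the most negative value of the 39 genes, its promoter is printed. The 250 bases before the RefSeq start, chr9:21015690-21015939 (RefSeq, GRCm38.p6, plus strand), hold 1 match to GGANNTTCC, a form of the NF-kB motif searched on both strands, at 153 to 145 bases before the start. It is in capitals.
Icam1: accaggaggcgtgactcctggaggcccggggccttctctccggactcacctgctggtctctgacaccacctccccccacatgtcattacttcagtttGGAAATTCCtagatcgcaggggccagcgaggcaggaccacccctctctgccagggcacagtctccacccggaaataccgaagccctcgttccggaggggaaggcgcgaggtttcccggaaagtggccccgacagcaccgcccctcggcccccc
Of 32851 mouse promoters of this length 3.59% held a match, and of 38 promoter entries for 31 of the 43 genes 1 did. A match is a description of letters, and the motif was chosen after the sequences were seen. *Vcam1* and *Itgb2* had no promoter entry.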

How the data were processed

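RNA-seq counts of 2 unloaded and 2 loaded MLO-Y4 libraries were used, grouped by the sample titles. The authors depleted ribosomal RNA, mapped trimmed reads to mm10 with HISAT2 2.1.0, assembled transcripts with StringTie 1.3.5 and deposited read counts per gene made with the prepDE script, which derives counts from assembled coverage. Strandedness and annotation release are not given in the sources used here. All gene identifiers matched GENCODE M21 (GRCm38), which gave coordinates, exon lengths and overlaps.

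Counts were filtered with filterByExpr (count minimum 10), TMM-scaled and tested over 16269 genes with edgeR 4.0.16 (quasi-likelihood, two-sided, Benjamini-Hochberg, threshold 0.01, as in the study) in R 4.3.3. The standard error is the log2 fold change divided by the square root of F. The script was tested on simulated data. Total counts were 28941994 to 32185693 per library. Alternatives were DESeq2 1.42.0, limma-voom (limma 3.58.1), edgeR's exact test and robust fit, RLE and upper-quartile factors, other filters, protein-coding genes only, the replicate number as a block, leaving out each library, a threshold of 0.05, transcript length and unscaled shares.

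The genes and lists were chosen with earlier results of these data known. Every gene is named; full statistics are given for an unadjusted edgeR p under 0.05, a DESeq2 adjusted p under 0.01 and the most abundant gene of each group, and, of other adhesion genes, for those called by either tool.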

Additional observations from a re-analysis of the deposited data

How the results depend on the processing

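At the threshold of 0.01, edgeR called 1 of the listed genes lower. The count was 0 without a filter on low counts, 0 with the replicate block, 2 with the robust fit, 3 with the exact test (*Icam1* joined, adjusted p = 0.00790), 2 with DESeq2, 2 with DESeq2 and the replicate block, 2 at 0.05, and 0 to 2 over the fits that leave out 1 library. The count of genes called higher was 0, and 1 with DESeq2. Of the other adhesion genes, 0 were called higher, 2 with DESeq2, and 0 to 2 over the fits that leave out 1 library. Called lower were 0, with 1 by the exact test, 3 by DESeq2, 1 by DESeq2 with the replicate block and 1 at 0.05. *Vcam1* had an adjusted p of 0.0182 without the filter and 0.0196 with the replicate block (edgeR). Same-numbered libraries did not deviate together (correlation across genes -0.06). This value cannot decide whether same-numbered samples were handled as pairs, because pairs may share little variation. The causes were not tested.

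Leaving out 1 library turned the sign of 18 log2 fold changes, none of a called gene: *Itga10* (-0.15 to 0.60), *Itgav* (-0.14 to 1.24), *Itgb3* (-0.34 to 1.52), *Itga6* (-0.27 to 0.14), *Itga4* (-0.78 to 0.52), *Zyx* (-0.032 to 0.16), *Pxn* (-0.047 to 0.11), *Ptk2* (-0.097 to 0.013), *Ptk2b* (-0.018 to 0.16), *Src* (-0.053 to 0.63), *Bcar1* (-0.029 to 0.0076), *Parva* (-0.016 to 0.23), *Lims1* (-0.24 to 0.097), *Tns1* (-0.11 to 0.091), *Tns3* (-0.014 to 0.046), *Vasp* (-0.018 to 0.13), *Cav2* (-0.043 to 0.11) and *Fn1* (-0.044 to 0.077). No other alternative turned a sign. A group left with 1 library is assumed to vary like the other.

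As shares of counts, without length scaling, alpha chains that bind collagen held 1.32% in unloaded and 0.684% in loaded cells (0.932% and 0.613% of TPM). RGD-binding chains held 47.4% in unloaded cells (42.3% of TPM) and laminin-binding chains 50.8% (56.2% of TPM). In loaded replicate 1 the order of these groups depended on length scaling. By TPM, RGD-binding chains (47.6%) were below laminin-binding ones (51.4%). By counts they were above, with *Itga5* and *Itgav* at 128 and 183 CPM and *Itga3* and *Itga6* at 240 and 38.6 CPM. The leukocyte beta chains held 31.4% and 34.0% (40.2% and 43.3%), *Itgb1* 48.4% and 49.8% (42.9% and 43.4%), and *Itgb4* 7.36% and 5.77% (3.80% and 2.92%). Depth limits the 9 subunits under 1 TPM most.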

Other observations

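Some adhesion genes differed between replicates of a group by more than between groups. Of 9684 tested genes with a mean of at least 10 CPM, 1.44% had replicates at least 2-fold apart in either group, 82 in each. This held for 1 of 31 listed genes (*Itgav*) and for 3 of 89 other adhesion genes. *Crk*, an adaptor of p130Cas, had 5590 and 1796 counts in unloaded and 6158 and 6258 in loaded libraries, and *Rac1*, the GTPase that drives lamellipodia, had 13745 and 5846 in unloaded and 14644 and 13725 in loaded libraries. Both were low in unloaded replicate 2. *Fblim1* (migfilin) had 2084 and 1351 in unloaded and 2409 and 1048 in loaded libraries. These genes were chosen after their values were seen.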
